A study of Mus musculus with 8 samples.

Results

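The 10 genes described here encode regulators of fat cell formation and proteins of lipid uptake and storage: Pparg, Cebpa, Cebpd, Lpl, Cd36, Fabp4, Plin2, Plin4, Car3 and Cfd. They were chosen by name, and every probe on the array that carries 1 of these names and is not a control was taken. This gave 11 probes of 55681, with a pair of probes for Lpl. Of the 10 genes, 8 were bright enough to be tested, among 20840 tested genes in all. Cd36 and Cfd were not. The RNA came from mouse embryonic fibroblasts (MEFs) of genotype Csk-/-, named CskKO, which carry the vector pBKT2-c-Src, and c-Src was switched on with doxycycline (Dox) at 1 µg/ml. The groups are cells after 0, 6, 24 and 72 h of induction, with 2 arrays each and 8 in all, and every group lacks Csk, the kinase that restrains Src family kinases. Whether the line is 1 clone, and what promoter drives c-Src, is not given in the sources used here.

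Fat cell formation runs through a chain of transcription factors. C/EBPδ (Cebpd) and its relative C/EBPβ are induced early, and PPARγ (Pparg) and C/EBPα (Cebpa) follow, sustain each other's expression and switch on the genes of the lipid-storing cell. Lipoprotein lipase (Lpl) frees fatty acids from lipoproteins, CD36 (Cd36) carries them across the plasma membrane and FABP4 (Fabp4) binds them in the cytoplasm. Perilipins (Plin2 and Plin4) coat lipid droplets, carbonic anhydrase III (Car3) is abundant in fat, and adipsin (Cfd) is a complement protease that fat cells secrete. Embryonic fibroblasts hold cells that can enter this program when given adipogenic hormones. The labels name no such hormones, and the comparison between times asks how these genes stood as c-Src induction went on.

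Each value below is a relative signal, the spot's processed signal after the array's 75th percentile was set to 100. Between 49.9% and 54.7% of the 59305 spots that are not controls were well above background, and 0 were saturated. Replicate arrays correlated across genes with r of 0.9964 to 0.9975. The labels say that samples were run in duplicate without naming separate cultures, so the error behind each p-value is that between 2 arrays and could be technical alone. Src was 26.9-fold, 23.8-fold and 19.6-fold above 0 h at 6, 24 and 72 h, and the Csk probe was well above background on 0 of 8 arrays. Of 10 fibroblast markers, 8 were well above background on all 8 arrays, and 1, Thy1, was so on none. All arrays lay on 1 slide, where each time had its own row, so time, Dox, length of culture and row cannot be told apart.

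Of the 8 tested genes, 2 were called higher (Plin2 and Cebpd) and 1 lower (Lpl) at 6 h than at 0 h, at an adjusted p under 0.05 by limma, where 17.6% of all tested genes were called, 10.3% higher and 7.24% lower. At 24 h, 2 were higher (Fabp4 and Plin2) and 3 lower (Cebpa, Lpl and Car3), with 41.5% of all genes called, 21.4% higher and 20.1% lower. After 72 h, 3 were higher (Fabp4, Plin2 and Plin4) and 4 lower (Pparg, Cebpa, Lpl and Car3), with 52% of all genes called, 27.5% higher and 24.6% lower. Only Cebpd among the 8 was not called at 72 h. The genes thus moved in both directions, and their median log2 difference from 0 h was 0.16, 0.01 and -0.14 at 6, 24 and 72 h, against 0, -0.02 and 0 over all tested genes. The 2 arrays of the later time did not overlap those of 0 h for 7, 8 and 8 of the 8 genes, against 62.7%, 69.8% and 78.1% of all genes. The 3 comparisons share the 0 h arrays. Scaling to the array median in place of the 75th percentile put the median of all genes at 0.06, 0.13 and 0.18 at the 3 times, so each difference is relative to the scaling used. It gave 1757 higher and 527 lower genes over the whole array at 6 h, against 2153 and 1508 as reported, 6043 and 2052 at 24 h, against 4451 and 4197, and 8023 and 2664 at 72 h, against 5721 and 5125. Quantile normalization gave 1805 and 2040 at 6 h. Among the 8 genes, median scaling called 2 higher and 0 lower at 6 h, 3 and 3 at 24 h and 4 and 4 at 72 h. Quantile normalization called 1 higher and 3 lower at 24 h.

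**Figure D1:**
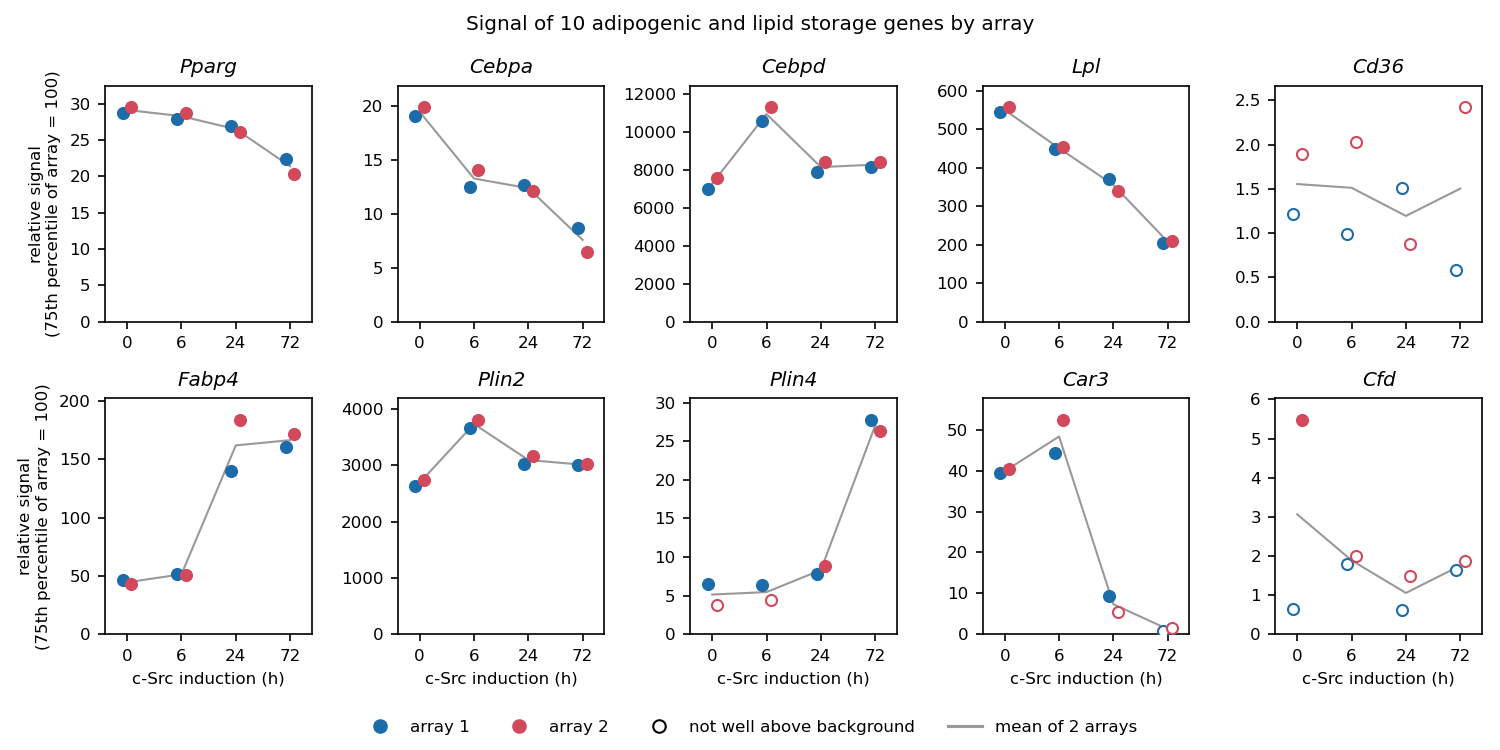
Relative signal (array's 75th percentile set to 100, linear axis from 0) of the 10 genes after 0, 6, 24 and 72 h of c-Src induction. Points are single arrays, open where the probe was not well above background, and the line joins the means of 2 arrays. Lpl steps down at each time, Fabp4 steps up between 6 and 24 h, Plin4 between 24 and 72 h, and Car3 steps down after 6 h.

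Pparg and Cebpa, the central pair of the program, were both lower at 72 h than at 0 h, while the early factor Cebpd was higher at 6 h. The probe of Pparg lies at chr6:115440213-115440272 (mm9, plus strand) and is printed 10 times on each array. Its relative signal was 28.8 and 29.5 at 0 h, 27.9 and 28.7 at 6 h, 26.9 and 26.1 at 24 h and 22.4 and 20.4 at 72 h. The 72 h arrays lay below all others, while those of the first 3 times lay close together. Pparg fell by 0.45 ± 0.06 (SE) on the log2 scale at 72 h, to 0.731 of its 0 h level (adjusted p = 0.00166). Its differences of -0.05 at 6 h (adjusted p = 0.639) and -0.14 at 24 h (adjusted p = 0.111) were not called. Normexp background correction gave -0.28 at 72 h and median scaling -0.27, both still called. Single spots spread more than the arrays did. The 9 spots used on the first 72 h array ran from 18.5 to 25.4 and the 10 on the second from 17.9 to 23.2, against 24.2 to 31.8 over 10 spots and 25 to 33.8 over 9 spots on the 0 h arrays. Spots of the 72 h and 0 h arrays thus overlapped singly, with medians of 23.2 and 20.2 at 72 h, against 29.8 and 29.9 at 0 h. As in any bulk sample, fewer cells with Pparg RNA and less of it per cell cannot be told apart.

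Cebpa (probe at chr7:35906517-35906576, mm9, plus strand) had a relative signal of 19.1 and 19.9 at 0 h, 12.5 and 14.1 at 6 h, 12.7 and 12.1 at 24 h and 8.73 and 6.47 at 72 h. All 6 induced arrays lay below both 0 h arrays, and the 6 h and 24 h arrays overlapped. Cebpa fell by 1.37 ± 0.15 on the log2 scale at 72 h, to 0.386 of its 0 h level (adjusted p = 0.000777). At 24 h it fell by 0.65 ± 0.15 (adjusted p = 0.016), a call that 5 of 18 alternative settings ended (adjusted p up to 0.0776). Those 5 settings were no filter on dim probes and leaving out either 0 h array or either 24 h array. Its -0.56 ± 0.15 at 6 h was not called (adjusted p = 0.053), though 6 of 18 settings called it. Normexp background correction gave -0.33 at 24 h and -0.59 at 72 h, still called.

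Cebpd (probe at chr16:15888459-15888518, mm9, plus strand) moved the other way. The relative signal of Cebpd was 6990 and 7580 at 0 h, 10600 and 11300 at 6 h, 7890 and 8420 at 24 h and 8150 and 8420 at 72 h. The 6 h arrays stood above all others, and the 24 h and 72 h arrays overlapped just above 0 h. Cebpd rose 1.5-fold at 6 h (0.59 ± 0.06 on the log2 scale, adjusted p = 0.00479). At 24 h it was lower by 0.42 ± 0.06 than at 6 h (adjusted p = 0.00802), a call lost without 6 h replicate 2 (adjusted p = 0.0558). Its 0.16 at 24 h (adjusted p = 0.0955) and 0.19 at 72 h (adjusted p = 0.0558) against 0 h were not called. The first was called in 3 of 18 settings, and the second in 5 of 18.

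Promoter windows from RefSeq (GRCm38.p6) were matched for 6 of the 10 genes, in 8 windows, of which Pparg has 3. The probe of Pparg does not tell its starts apart. The windows were searched on both strands, over the 250 bases before the start, for 4 motifs: a C/EBP site (TTNNGCAA), a direct repeat read by PPAR and RXR (DR1), an AP-1 site (TGANTCA) and a TATA box (TATAAA). No match overlapped another. The windows of Pparg and Cebpa that held a match are shown because these genes were both lower at 72 h, with matches in capitals. The first, at chr6:115362099-115362348, holds 1 TATA match on the minus strand. The next, at chr6:115421816-115422065, holds 2 C/EBP matches. The third, at chr7:35119043-35119292, holds 1 TATA match. All 3 windows are on the plus strand and read 5′ to 3′.
Pparg window 2: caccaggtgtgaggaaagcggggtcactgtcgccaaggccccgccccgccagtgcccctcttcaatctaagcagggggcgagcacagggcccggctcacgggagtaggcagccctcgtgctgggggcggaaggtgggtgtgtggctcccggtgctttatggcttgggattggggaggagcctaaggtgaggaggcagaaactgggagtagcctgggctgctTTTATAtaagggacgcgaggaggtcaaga
Pparg window 3: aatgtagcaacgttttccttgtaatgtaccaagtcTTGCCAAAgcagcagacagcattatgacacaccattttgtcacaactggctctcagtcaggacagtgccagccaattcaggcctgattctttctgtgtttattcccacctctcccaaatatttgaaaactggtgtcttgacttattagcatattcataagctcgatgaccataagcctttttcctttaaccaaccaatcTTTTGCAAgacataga
Cebpa window: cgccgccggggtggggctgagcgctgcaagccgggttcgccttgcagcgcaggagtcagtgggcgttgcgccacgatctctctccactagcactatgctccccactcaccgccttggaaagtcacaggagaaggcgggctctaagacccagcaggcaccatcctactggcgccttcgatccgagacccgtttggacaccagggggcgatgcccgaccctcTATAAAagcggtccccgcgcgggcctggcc
The C/EBP letters at Pparg lie at bases -215 to -208 and -16 to -9 from the start, and the TATA letters at bases -29 to -24 for Pparg and -30 to -25 for Cebpa. Of all 32851 windows, 9.56% held the C/EBP letters, 12.4% TATAAA, 6.75% the AP-1 letters and 0.338% the direct repeat. The windows of Plin2, Plin4, Cd36 and Cfd held none of the 4 motifs, which says only that these letters are not in these windows.

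Lpl was lower at each later time and hydrolyses the triglycerides of lipoproteins. Its brighter probe lies at chr8:71430267-71430326 (mm9, plus strand). Its relative signal was 544 and 557 at 0 h, 449 and 453 at 6 h, 371 and 340 at 24 h and 205 and 211 at 72 h. The 4 times were fully apart on these arrays, each below the one before. Lpl fell by 1.41 ± 0.06 on the log2 scale at 72 h, to 0.377 of its 0 h level (adjusted p = 5.17e-05), and by 0.63 ± 0.06 at 24 h (adjusted p = 0.000691). The fall of 0.29 ± 0.06 at 6 h was called (adjusted p = 0.0228), but 8 of 18 settings ended that call (adjusted p up to 0.171). Between 6 and 24 h Lpl fell by 0.34 ± 0.06 (adjusted p = 0.00961, lost in 4 of 18 settings), and between 24 and 72 h by 0.77 ± 0.06 (adjusted p = 0.00234).

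The second Lpl probe, at chr8:71425050-71425109 (mm9, plus strand), gives a separate reading of the same RNA, and its sequence is shown because the fall of Lpl rests on both probes.
Lpl second probe: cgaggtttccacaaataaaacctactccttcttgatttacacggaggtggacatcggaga
Of its 3 forward reading frames, 1 has no stop codon. Its relative signal was 144 and 135 at 0 h, 113 and 118 at 6 h, 106 and 95.8 at 24 h and 54 and 54.4 at 72 h. The order of the times was that of the brighter probe. Its log2 difference from 0 h was -0.27 ± 0.07 at 6 h (adjusted p = 0.0546), -0.47 ± 0.07 at 24 h (adjusted p = 0.00426) and -1.37 ± 0.07 at 72 h (adjusted p = 0.000101). The 6 h call therefore holds for 1 of the 2 probes, and the later calls for both.

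**Figure D2:**
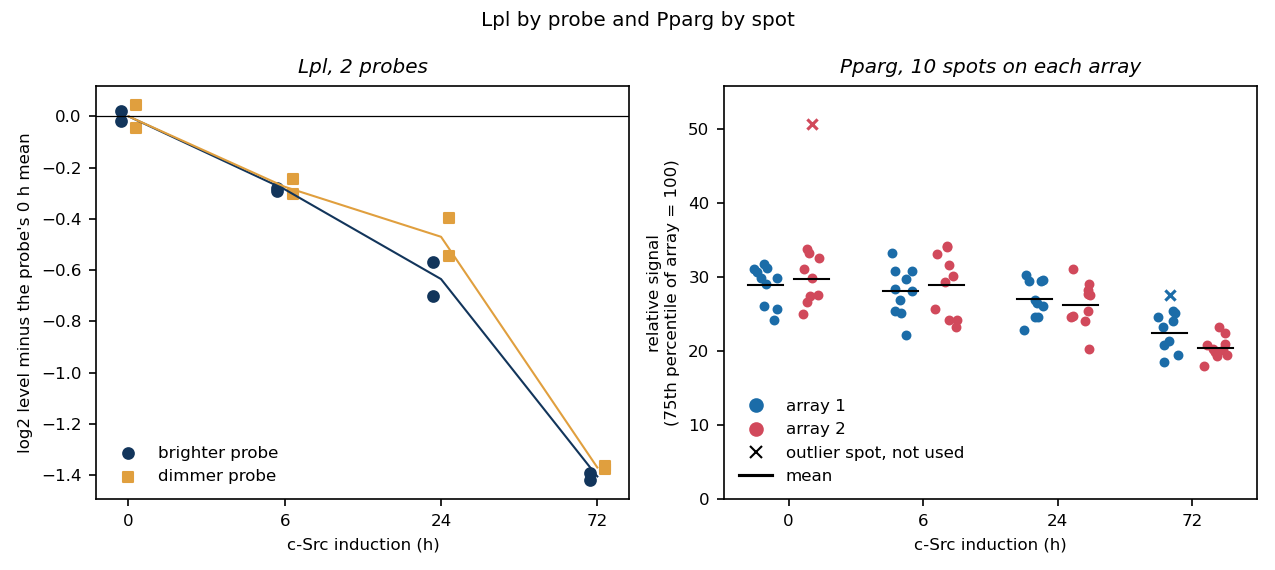
Left, log2 level of the 2 Lpl probes minus each probe's own 0 h mean, with points for single arrays and lines through the means; at 72 h they reach -1.41 and -1.37. Right, relative signal of the 10 Pparg spots on each array, with the mean as a bar and 2 outlier spots, not used, as crosses; the 72 h means of 22.4 and 20.4 lie below those of the other times.

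Fabp4, the fatty acid binding protein of fat cells and macrophages, was higher at 24 h and 72 h. Its probe lies at chr3:10204452-10204511 (mm9, minus strand). Its relative signal was 46.1 and 42.7 at 0 h, 51.6 and 51.1 at 6 h, 140 and 184 at 24 h and 161 and 172 at 72 h. The arrays formed a low pair of times and a high pair, and those of 24 h and 72 h overlapped. Fabp4 rose 3.62-fold at 24 h (1.85 ± 0.13 on the log2 scale, adjusted p = 0.000358) and 3.76-fold at 72 h (1.91 ± 0.13, adjusted p = 0.000185). The step between 6 and 24 h was 1.64 ± 0.13 (adjusted p = 0.00144), whereas the differences of 0.21 at 6 h (adjusted p = 0.325) and 0.05 between 24 and 72 h (adjusted p = 0.798) were not called. All settings tried kept the calls at 24 h and 72 h. Macrophages also express Fabp4. Of 10 macrophage markers, Ptprc, Adgre1, Lyz2, Fcgr1 and Tyrobp were well above background on 0 of 8 arrays and Csf1r, Itgam and Cd14 on all 8. Their summed relative signal was 1700 and 1820 at 0 h, 1810 and 1840 at 6 h, 1660 and 1770 at 24 h and 1750 and 1820 at 72 h. Most of this sum was Itgam, at 1560 and 1670 at 0 h and 1560 and 1620 at 72 h, so the sum says little about the others. Cd14 was called higher at 24 h (log2 difference 0.30, adjusted p = 0.0422) but not at 6 or 72 h. Of the 10, the lysosomal glycoprotein gene Cd68, chosen here after its values were seen, stood at 9.98 and 10.6 at 72 h. At 0 h it stood at 1.6 and 1.34, not well above background. Against a bound like that given for Car3 below, Cd68 was 2.92-fold higher at 72 h. Its fitted log2 differences were 1.32, 1.78 and 2.81 at 6, 24 and 72 h (adjusted p = 0.00771, 0.000911 and 0.000133). Csf1r, the receptor of a macrophage growth factor, stood at 98.4 and 106 at 0 h, 182 and 195 at 6 h, 186 and 173 at 24 h and 132 and 145 at 72 h. Csf1r was called higher than at 0 h at each time, by 0.88, 0.81 and 0.44 on the log2 scale (adjusted p = 0.00258, 0.000834 and 0.00536). Itgam was called at no time. The part of these markers in the Fabp4 result was not tested. Cd36 gave no readable level, as its probe at chr5:17288600-17288659 (mm9, minus strand) stayed near background throughout (well above it on 0 arrays), with relative signals from 0.587 to 2.42.

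The droplet coat genes Plin2 and Plin4 were higher at different times. Plin2, the perilipin that most cell types express, has its probe at chr4:86302847-86302906 (mm9, minus strand). The relative signal of Plin2 was 2640 and 2740 at 0 h, 3660 and 3810 at 6 h, 3030 and 3160 at 24 h and 3000 and 3020 at 72 h. The 6 h arrays stood highest and the 0 h arrays lowest. Plin2 rose 1.39-fold at 6 h (0.47 ± 0.05 on the log2 scale, adjusted p = 0.00402), and the 24 h level was lower than that of 6 h by 0.27 ± 0.05 (adjusted p = 0.0131, lost in 3 of 18 settings; -0.17 under median scaling). The smaller rises of 0.21 at 24 h (adjusted p = 0.0189) and 0.16 at 72 h (adjusted p = 0.0339) depended on the setting. They were lost in 5 and 9 of 18 settings (adjusted p up to 0.102 and 0.147), and quantile normalization gave 0.10 and 0.08 and median scaling 0.35 and 0.34. The difference of -0.04 between 24 and 72 h was not called (adjusted p = 0.568).

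Plin4, a perilipin of white fat and muscle, has its probe at chr17:56240055-56240114 (mm9, minus strand), which was well above background on 1 of 2 arrays at 0 h, 1 of 2 at 6 h and all 4 later arrays. The relative signal of Plin4 was 6.44 and 3.82 at 0 h, 6.43 and 4.47 at 6 h, 7.73 and 8.88 at 24 h and 27.8 and 26.3 at 72 h. Both 72 h arrays lay far above the rest, and the 0 h and 6 h arrays overlapped. Plin4 rose 5.45-fold at 72 h (2.45 ± 0.28 on the log2 scale, adjusted p = 0.00105), with 0.95 under normexp background correction, still called. The differences of 0.11 ± 0.28 at 6 h (adjusted p = 0.822) and 0.74 ± 0.28 at 24 h (adjusted p = 0.0868) were not called. The 24 h value was 1.12 without 0 h replicate 1 (adjusted p = 0.0267), 0.36 without 0 h replicate 2 and 0.17 under normexp, and it was called in 2 of 17 settings. From 24 to 72 h Plin4 rose by 1.71 ± 0.28 (adjusted p = 0.0138), a call that 4 of 17 settings ended (adjusted p up to 0.0746), among them leaving out 24 h replicate 1 and either 72 h array, and it was 0.78 under normexp, still called. Muscle also expresses Plin4. Of 8 skeletal muscle markers, Myod1, Myog, Ckm and Myh3 were well above background on 0 of 8 arrays and Acta1, Des and Tnnt3 on all 8. Their summed relative signal was 121 and 123 at 0 h, 217 and 237 at 6 h, 214 and 226 at 24 h and 224 and 240 at 72 h. Most of the difference lay in the muscle actin gene Acta1, named after its values were seen, with 55 and 54.7 at 0 h, 153 and 166 at 6 h, 145 and 152 at 24 h and 155 and 148 at 72 h. Des stood between 52.6 and 59.8 on all arrays, and Tnnt3 between 5.77 and 9.77. Mylpf was well above background on 1 array only, the second of 72 h, at 24.1. The part of these markers in the Plin4 result was not tested.

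Car3 had the largest fall of the 8 genes. Carbonic anhydrase III is a cytoplasmic enzyme abundant in fat and slow muscle. Its probe at chr3:14871781-14871840 (mm9, plus strand) was well above background on all arrays of 0 and 6 h, 1 of 2 at 24 h and 0 of 2 at 72 h. The relative signal of Car3 was 39.4 and 40.4 at 0 h, 44.3 and 52.5 at 6 h, 9.24 and 5.37 at 24 h and 0.839 and 1.6 at 72 h. Both 6 h arrays lay above both 0 h arrays, and the 24 h and 72 h arrays lay below them without overlap. At 24 h Car3 was 5.67-fold lower than at 0 h (log2 difference -2.50 ± 0.37, adjusted p = 0.00372; -1.21 under normexp background correction), and from 6 to 24 h it fell by 2.77 ± 0.37 (adjusted p = 0.00542; -1.37 under normexp). Its 72 h level is only a bound, taken per array as the higher of the lowest signal well above background and the probe's own signal. Against that bound Car3 was 13-fold lower at 72 h than at 0 h and 2.29-fold lower than at 24 h. The 24 h mean includes the array at 5.37, which was not well above background. A probe above this limit can thus still fail to be well above background, so these folds are not strict minima. The bounds carry no test. The limma fit, which used the 72 h signals as they were, gave log2 differences of -5.10 (adjusted p = 0.000217) and -2.60 (adjusted p = 0.00937). Folds against a bound depend on the limit chosen. A common floor for all arrays gave log2 differences of -3.32 and -0.81, of which the second was no longer called (adjusted p = 0.0623), and normexp gave -1.64 and -0.43. The 6 h difference of 0.27 ± 0.37 was not called (adjusted p = 0.659). Cfd, at chr10:79355302-79355361 (mm9, plus strand), was well above background on 1 array only, the second of 0 h with a relative signal of 5.48. The other 7 arrays ran from 0.614 to 1.99, and no level was tested.

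**Figure D3:**
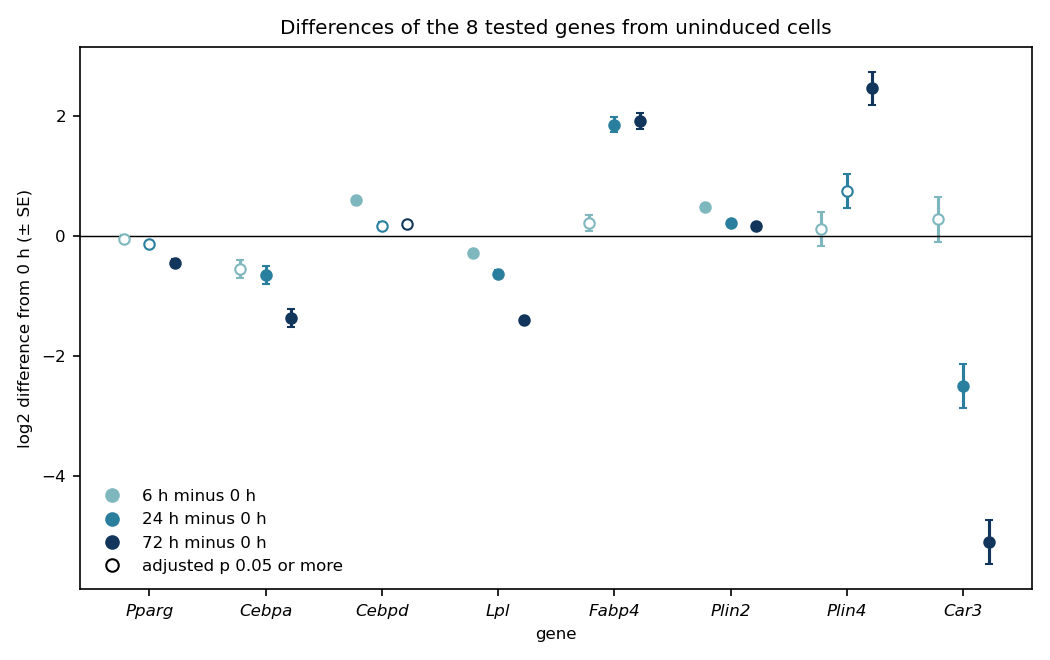
Log2 difference from 0 h of the 8 tested genes at 6, 24 and 72 h of c-Src induction, with SE from limma (2 arrays each). Filled points have an adjusted p under 0.05; the 72 h point of Car3 is the fitted value of a probe not well above background there. The values run from 2.45 for Plin4 to -5.10 for Car3, and Cebpd and Plin2 are highest at 6 h.

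The 8 genes also differed in the step at which they moved. From 6 to 24 h, Fabp4 was called higher and Lpl, Plin2, Car3 and Cebpd lower, 5 of 8 where 26.2% of all tested genes were called, 12.6% higher and 13.6% lower. From 24 to 72 h, Plin4 was called higher and Pparg, Cebpa, Lpl and Car3 lower, again 5 of 8, where 21.6% of all genes were called, 10.8% higher and 10.9% lower. In this last step Pparg fell by 0.31 ± 0.06 (adjusted p = 0.0195, lost in 5 of 18 settings; -0.18 under normexp) and Cebpa by 0.72 ± 0.15 (adjusted p = 0.0232, lost in 7 of 18; -0.26 under normexp). The Pparg call was lost without 6 h replicate 2, 24 h replicate 1 or 72 h replicate 2, with differences of -0.24 to -0.31. The Cebpa call was lost without either 0 h array, 6 h replicate 2, either 24 h array or 72 h replicate 2, with differences of -0.51 to -0.76. There was no overlap between the arrays of 6 and 24 h for 7 of 8 genes, nor between those of 24 and 72 h for 6 of 8, against 65.1% and 64.9% of all genes. Lpl and Car3 were the 2 genes called lower in both steps, and neither Fabp4 nor Plin4 was called in both. Within each slide column, which holds 1 array of every time, the 72 h minus 0 h differences were -0.37 and -0.54 for Pparg, -1.13 and -1.62 for Cebpa and -1.41 and -1.40 for Lpl. They were 1.80 and 2.01 for Fabp4, 2.11 and 2.78 for Plin4, 0.18 and 0.14 for Plin2 and 0.22 and 0.15 for Cebpd.

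Marker genes of fat cells were mostly dark. Of 12 markers of mature adipocytes, Adipoq, Lep, Slc2a4, Plin1, Cidec, Thrsp and Pck1 were well above background on none of the 8 arrays, and Retn and Lipe on all 8. Their summed relative signal was 90.3 and 87.2 at 0 h, 61.5 and 92.5 at 6 h, 40.2 and 43.6 at 24 h and 42.8 and 44.4 at 72 h. Much of the difference between 72 h and 0 h came from Adrb3, the beta-3 adrenergic receptor, named here after its values were seen. It stood at 41.6 and 35.9 at 0 h, 17.7 and 19.8 at 6 h, 6.39 and 7.19 at 24 h and 3.5 and 3.15 at 72 h. Against a bound like that of Car3, Adrb3 was 10.9-fold lower at 72 h than at 0 h, and its fitted log2 difference was -3.54 (adjusted p = 3.19e-05). Of the 5 tested markers, Aqp7 was called higher at 72 h (fitted 0.52, adjusted p = 0.0446). It was well above background on 4 of 8 arrays, with 2.87 and 3.8 at 0 h and 5.18 and 4.3 at 72 h. The 72 h differences of Adig (0.83), Retn (-0.26) and Lipe (-1.23) were not called. Aqp7 and Adig are also named after their values were seen. The summed signal of 7 preadipocyte and stromal markers was 1040 and 1040 at 0 h, 1100 and 1160 at 6 h, 779 and 680 at 24 h and 422 and 444 at 72 h, with Dlk1 and Thy1 dark on all arrays. The sum of the 10 fibroblast markers, which share Pdgfrb and Thy1 with this list, was lower at 72 h too. It was 96200 and 103000 at 0 h, 104000 and 102000 at 6 h, 86600 and 90100 at 24 h and 80800 and 81600 at 72 h. Of the fibroblast markers, Vim rose from 10600 and 10600 at 0 h to 17100 and 16300 at 72 h (log2 difference 0.65, adjusted p = 0.000467). The other tested fibroblast markers were called lower at 72 h. Vim is named after its values were seen. These sums lean on their brightest probes. Against 0 h, the preadipocyte sum was lower at 24 and 72 h and not at 6 h. The adipocyte sums of 24 and 72 h overlapped. The part of these markers in the falls of Pparg, Cebpa, Lpl and Car3 was not tested.

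Other regulators of fat cell formation moved in both directions. Of 20 listed transcription regulators, 17 were tested, of which 4 rose and 3 fell at 6 h, 4 rose and 6 fell at 24 h, and 6 rose and 4 fell at 72 h. The called share was 41.2%, 58.8% and 58.8%, against 17.6%, 41.5% and 52% of all tested genes. Their median log2 differences were -0.09, -0.12 and -0.03. Egr2 (Krox20), which acts early in adipogenesis, rose by 4.64 ± 0.08, 3.05 ± 0.08 and 1.36 ± 0.08 at 6, 24 and 72 h (0.89 at 72 h under normexp). Klf5, a zinc-finger activator of Pparg, rose by 0.62, 0.97 and 1.31 (SE 0.07 each) and Klf4, an activator of Cebpb, by 1.09, 0.78 and 0.96 (SE 0.04 each). The coactivator gene Ppargc1a fell by 1.25 ± 0.21 at 24 h (adjusted p = 0.00608) and 1.07 ± 0.21 at 72 h (adjusted p = 0.00817), while its 6 h value of -0.60 was not called (adjusted p = 0.114). Median scaling gave 4 higher and 1 lower at 6 h, 6 and 3 at 24 h and 7 and 3 at 72 h.

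Of 20 listed inhibitors of adipogenesis, 18 were tested, of which 7 rose and 6 fell at 6 h, 7 rose and 6 fell at 24 h, and 7 rose and 9 fell at 72 h, with medians of 0.14, -0.02 and -0.19. The called share was 72.2%, 72.2% and 88.9%, against 17.6%, 41.5% and 52% of all tested genes. Sfrp2, counted among the falls at each time, was well above background at 0 h only. The 6 h count of 13 dropped to 5 without 6 h replicate 2, 7 without 6 h replicate 1 or 0 h replicate 2 and 8 without 0 h replicate 1. Sox9, a chondrogenic factor that restrains fat cell fate, rose by 2.78 ± 0.08, 3.20 ± 0.08 and 2.21 ± 0.08 (1.67, 2.05 and 1.24 under normexp). Ddit3, the stress-induced C/EBP relative CHOP, rose by 0.75, 1.29 and 2.40 (SE 0.08 each). The pseudokinase gene Trib3 rose by 0.94 ± 0.10 at 24 h and 1.70 ± 0.10 at 72 h, with 0.25 at 6 h not called (adjusted p = 0.153). Wnt5a, a secreted Wnt ligand, fell by 0.85 ± 0.09 at 24 h and 1.85 ± 0.09 at 72 h, with -0.19 at 6 h not called (adjusted p = 0.199). Under median scaling 7 were higher and 1 lower at 6 h, 8 and 5 at 24 h and 7 and 7 at 72 h.

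Of 17 listed genes of the lipid droplet coat and of lipolysis, 13 were tested, of which 1 rose at 6 h, 2 rose and 1 fell at 24 h, and 6 rose and 3 fell at 72 h, with medians of -0.07, -0.03 and 0. The called share was 7.69%, 23.1% and 69.2%, against 17.6%, 41.5% and 52% of all tested genes. The 72 h count of 9 dropped to 5 without either 0 h array, and the 6 h count was 2 without 6 h replicate 1 or either 24 h array. The probes of Plin1, Plin5, Cidec and Fitm1 were well above background on no array. Hilpda, a hypoxia-inducible inhibitor of droplet lipolysis, rose by 0.99, 0.87 and 0.84 (SE 0.07 each) and Abhd5, the coactivator of adipose triglyceride lipase, by 0.62 ± 0.08 at 24 h and 0.95 ± 0.08 at 72 h, with 0.22 at 6 h not called (adjusted p = 0.121). Bscl2, which encodes seipin of the droplet assembly site, fell by 0.44 ± 0.06 at 72 h (adjusted p = 0.00171; lost under median scaling, -0.26, adjusted p = 0.0527). Its fall of 0.19 ± 0.06 at 24 h was lost in 13 of 18 settings (adjusted p up to 0.744). Cidea, a droplet fusion protein, was well above background at 0 h only, and its probe passed the filter only through that time. Against a bound like that of Car3, Cidea was 1.71-fold lower at 72 h. Its fitted difference of -1.58 ± 0.42 was called (adjusted p = 0.0241, lost in 4 of 17 settings), with -0.21 under normexp and -0.46 with a common floor. Median scaling gave 4 higher and 0 lower at 24 h and 6 and 1 at 72 h, and quantile normalization 1 and 1 at 6 h and 2 and 0 at 24 h.

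All 16 listed genes of fatty acid uptake and binding other than the 3 above were tested. At 6 h 2 rose and 0 fell, at 24 h 7 rose and 3 fell, and at 72 h 7 rose and 4 fell, with medians of -0.05, 0.12 and 0.07. The called share was 12.5%, 62.5% and 68.8%, against 17.6%, 41.5% and 52% of all tested genes. The 72 h count of 11 dropped to 7 without 0 h replicate 2 or 72 h replicate 1. Angptl4, the secreted inhibitor of lipoprotein lipase, rose by 1.54 ± 0.08 at 6 h (adjusted p = 0.000423) and 0.96 ± 0.08 at 24 h (adjusted p = 0.000541), and its 72 h value of -0.08 was not called (adjusted p = 0.444). Slc27a1, a fatty acid transporter, rose by 0.99 ± 0.06 at 24 h and 1.31 ± 0.06 at 72 h. Fabp5, the epidermal relative of Fabp4, rose by 0.50 ± 0.09 at 24 h and 0.75 ± 0.09 at 72 h. Neither was called at 6 h (0.18 for Slc27a1 and 0.06 for Fabp5). The split under median scaling was 8 higher and 1 lower at both 24 and 72 h, and quantile normalization gave 2 and 1 at 6 h.

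Of 14 listed genes of triglyceride synthesis, 12 were tested, of which 1 rose and 2 fell at 6 h, 1 rose and 3 fell at 24 h, and 3 rose and 2 fell at 72 h, with medians of -0.10, -0.02 and -0.03. The called share was 25%, 33.3% and 41.7%, against 17.6%, 41.5% and 52% of all tested genes. The 6 h count of 3 dropped to 0 when a single array of 0 or 6 h, or 72 h replicate 2, was left out, and to 1 without either 24 h array or 72 h replicate 1. Gpd1, which makes glycerol 3-phosphate, fell by 0.78 ± 0.11 at 24 h (adjusted p = 0.00265) and 1.73 ± 0.11 at 72 h (adjusted p = 0.000127), with -0.09 at 6 h not called (adjusted p = 0.621). Lpin1, a phosphatidate phosphatase, fell by 0.45 ± 0.08 at 24 h (adjusted p = 0.00712, lost in 4 of 18 settings, -0.17 under normexp) and 0.52 ± 0.08 at 72 h (adjusted p = 0.00301, lost under median scaling, -0.17 under normexp). Its relative Lpin2 rose by 0.27, 0.36 and 0.43 (SE 0.07 each), of which the first was lost in 11 of 18 settings. Mogat2, a monoacylglycerol acyltransferase, fell by 0.40 ± 0.07 at 6 h (lost in 6 of 18 settings) and 0.52 ± 0.07 at 24 h, with -0.11 at 72 h not called (adjusted p = 0.268). Median scaling gave 0 higher and 1 lower at 6 h, 2 and 2 at 24 h and 3 and 1 at 72 h, and quantile normalization 0 and 2 at 6 h and 3 and 3 at 72 h.

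The last list has 15 genes: the PPAR receptor genes Ppara and Ppard, and genes of fatty acid oxidation that PPAR factors are known to drive. Of the 15, 14 were tested, of which 2 rose and 3 fell at 6 h, 1 rose and 8 fell at 24 h, and 2 rose and 8 fell at 72 h. These counts include the receptor genes, named here to give the make-up of the list. Ppard rose by 0.38, 0.42 and 0.36 (SE 0.07 each) and was the only rise at 24 h. The medians of the 14 genes were -0.03, -0.35 and -0.30, against 0, -0.02 and 0 over all genes. Of all genes, 20.1% and 24.6% were called lower at 24 and 72 h. The called share in either direction was 35.7%, 64.3% and 71.4%, against 17.6%, 41.5% and 52% of all tested genes. The 6 h count of 5 dropped to 2 without 0 h replicate 1 or 72 h replicate 2, to 1 without 6 h replicate 1 and to 0 without 0 h replicate 2 or 6 h replicate 2. Acaa2, the mitochondrial thiolase, fell by 0.77 at 24 h and 1.48 at 72 h, with -0.14 at 6 h not called. Pdk4, the kinase that shuts off pyruvate dehydrogenase, fell by 0.47, 1.22 and 1.15 (SE 0.07 each), of which the first was lost in 4 of 18 settings. Cpt1a, the carnitine palmitoyltransferase of the outer mitochondrial membrane, fell by 0.66 ± 0.07 at 24 h and 0.95 ± 0.07 at 72 h, with 0.21 at 6 h not called (adjusted p = 0.0952). Ech1 fell by 0.65 ± 0.06 at 24 h and by 0.28 ± 0.06 at 72 h, the second lost in 5 of 18 settings (-0.10 under median scaling). The counts with median scaling were 1 higher and 0 lower at 6 h, 2 and 6 at 24 h and 2 and 4 at 72 h, and quantile normalization gave 1 and 3 at 6 h.

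**Figure D4:**
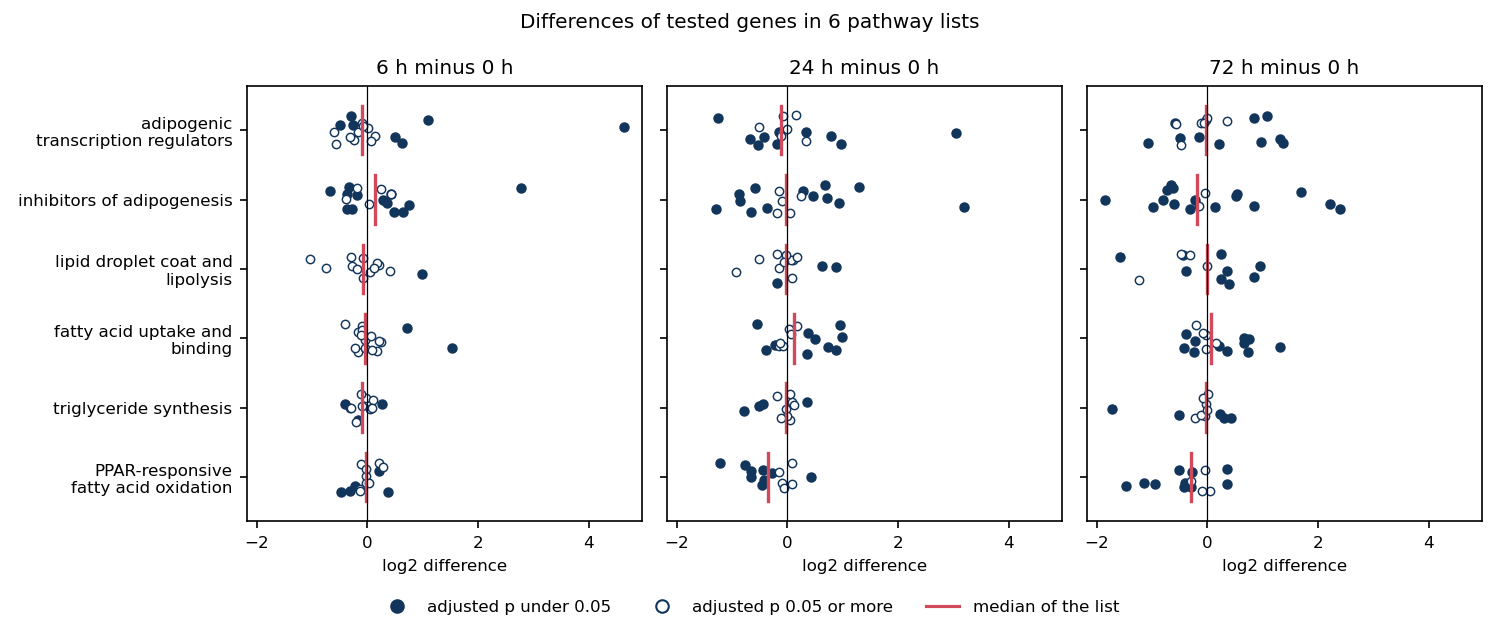
Log2 difference from 0 h of the tested genes of 6 pathway lists at 6, 24 and 72 h, 1 point a gene, filled where the adjusted p is under 0.05, with the list's median as a bar. Medians lie between -0.35 and 0.14; the fatty acid oxidation list has the lowest at 24 and 72 h, and Egr2 at 4.64 is the farthest point at 6 h.

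The genes whose log2 levels over the 8 arrays ran most like those of Car3, Plin4 and Fabp4, the 3 with the largest differences, were named by Pearson's r. Only tested genes with a RefSeq symbol, a value on every array and no clone or locus name were ranked, from the highest r. These r values describe 8 arrays of only 4 times and carry no test. Car3 was not well above background on 3 of the 8 arrays and Plin4 on 2, so for these genes r rests in part on background signal and the order of close values cannot be read. For Car3 they were Mllt6 (r = 0.9976), Psd3 (r = 0.997) and the zinc exporter gene Slc30a1 (r = 0.9968), whose log2 differences at 72 h were -0.55, -1.35 and -1.21. For Plin4 they were Ramac (r = 0.9898), the autophagy receptor gene Optn (r = 0.9891) and the mitochondrial ribosome gene Dap3 (r = 0.989), with 0.33, 0.85 and 0.14. For Fabp4 they were Amdhd2 (r = 0.9978), Bmper, which encodes a BMP-binding protein (r = 0.9968), and the centromere gene Cenpi (r = 0.9956), with 0.72, 0.90 and 0.32. Each of these 72 h differences was smaller in size than the 1.91 of Fabp4, the 2.45 of Plin4 or the -5.10 fitted for Car3.

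**Figure D5:**
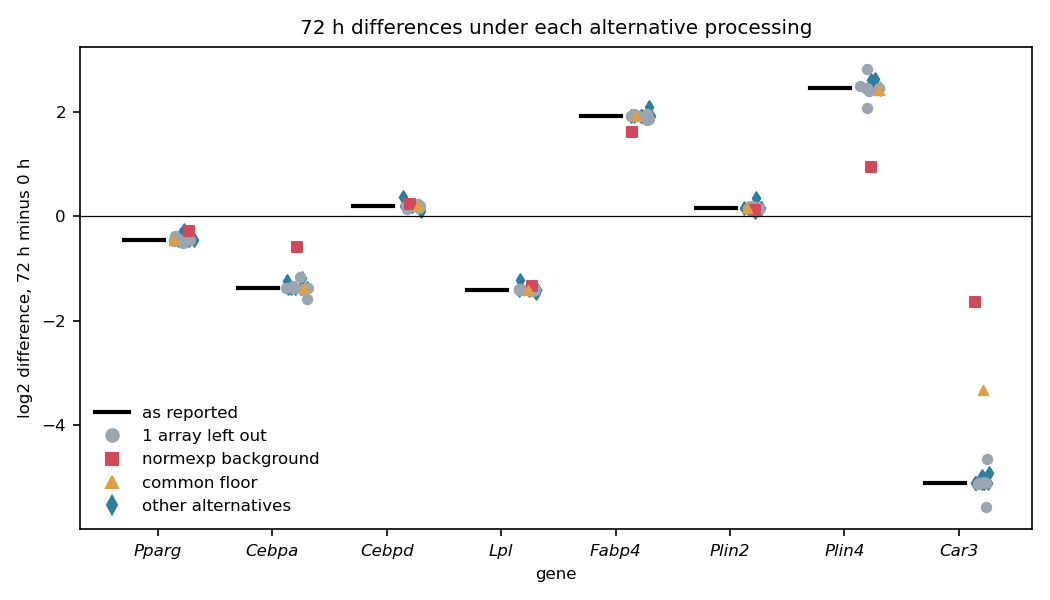
Log2 difference at 72 h minus 0 h of the 8 tested genes as reported (black bar) and under each alternative processing (points; 8 with 1 array left out). Normexp background correction shrinks Cebpa to -0.59, Plin4 to 0.95 and Car3 to -1.64, and no gene changes sign.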

How the data were processed

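RNA of 8 samples was hybridised to 1-colour Agilent arrays. Sepazol extraction and Cy3 labelling are given per the labels' protocols. The deposited scanner files hold a processed signal per spot, an intensity on a linear scale after background subtraction, per the file headers, which name Feature Extraction 10.5.1.1 and build mm9, while version 10.7.3.1 stands in the submitters' processing notes. A further deposited table repeats these intensity values and served as an alternative.

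The processed signals were put on the log2 scale from the deposited intensities and each array's 75th percentile was subtracted. Outlier spots were left out and spots of a probe averaged. A probe was kept where both arrays of some time were well above background (28610 of 55681), and the brightest probe stood for its gene. Plin4, Car3, Cidea and Sfrp2 passed only through the times where they were brighter, so their calls are not independent of this filter. The same holds for markers such as Cd68, Adrb3 and Aqp7. The fit used limma 3.58.1 (R 4.3.3) and 4 means for 8 arrays (4 residual degrees of freedom, prior 1.7) and Benjamini-Hochberg adjustment over 20840 genes at 0.05. The fit was also run on simulated data with normal noise and planted differences, which cannot speak to technical duplicates or to probes near background. The number of arrays limits the precision; the median SE was 0.075. Figures used Python 3.11.15 and matplotlib 3.10.9.

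The 10 genes, the 6 pathway lists, the marker lists and the tests were chosen with earlier results of these data known. Named are all 10 genes, Src and Csk, up to 4 called genes of each pathway list with the largest differences, the 3 genes most like each of the 3 members that differed most, and markers read on all arrays or none; 1 gene that this rule names is not reported here. Alternatives changed the background correction, scaling, source of values, filter, probe choice, floor, replicate block, variance model and arrays used.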

Additional observations from a re-analysis of the deposited data

How the results depend on the processing

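Over 710 results of the 8 tested genes under 18 alternatives, 633 kept direction and side of the threshold, 52 lost a call, 16 gained one and 9 changed sign. The calls of Lpl, Fabp4 and Car3 at 24 and 72 h, of Plin2 and Cebpd at 6 h and of Pparg, Cebpa and Plin4 at 72 h were kept under every alternative that could be run. Where probes had to be well above background on all arrays, Plin4 and Car3 gave no value. No sign change touched a call, among these genes or the named list genes. Under median scaling Pparg gave 0.01 at 6 h, 0.01 at 24 h and 0 from 6 to 24 h, Cebpa 0 from 6 to 24 h, and of the list genes Angptl4 gave 0.10 and Mogat2 0.08 at 72 h. Under quantile normalization the list gene Fabp5 gave -0.04 at 6 h. Plin4 at 6 h ran from -0.27 without 0 h replicate 2 to 0.49 without 0 h replicate 1, with -0.15 without 6 h replicate 1. From 24 to 72 h Fabp4 ran from -0.14 without 24 h replicate 1 to 0.25 without 24 h replicate 2, and Cebpd from -0.02 to 0.07 without the same arrays, with 0 without 72 h replicate 2.

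Median scaling called 3 of the 8 genes from 6 to 24 h (5 as reported), 18 genes of the pathway lists at 6 h (31) and 2284 of all genes at 6 h (3661). Without a filter on dim probes, 3 of the genes were called at 24 h, 3 from 6 to 24 h and 2 from 24 to 72 h (5 each as reported), 13 list genes at 6 h (31), 871 of all genes at 6 h (3661) and 5600 at 24 h (8648). With probes well above background on all arrays, 3 were called from 24 to 72 h. With 1 array left out in turn, the remaining array of a time was assumed to vary like the other times. The called genes of the 8 then numbered 2 to 3 at 6 h, 3 to 5 at 24 h, 6 to 7 at 72 h, 2 to 5 from 6 to 24 h and 2 to 5 from 24 to 72 h. List genes numbered 13 to 31, 43 to 47 and 47 to 61 at 6, 24 and 72 h, and all genes 1241 to 3439, 6519 to 7733 and 7988 to 10852. The causes were not tested.

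Replicate numbers follow the slide column and share only a number in the labels. Deviations of same-numbered arrays correlated with r of 0.056 to 0.17. With the replicate block, 4071, 9209 and 11397 genes were called at 6, 24 and 72 h, and among the 10 genes only Cebpd changed its call, with adjusted p = 0.0274 at 24 h and 0.0153 at 72 h.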
